A study of Arabidopsis thaliana with 24 samples.

Results

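Transcript levels were compared in seed of the *Arabidopsis thaliana* line Attim17-1, written *tim17-1* here, between the end of cold stratification and 6 h of light. The step is the mean of 3 arrays at 6 h SL minus the mean of 3 arrays at 48 h S, chosen by their titles. These are 6 of the 24 arrays of the study, and all 22746 probe sets other than controls were used. The study holds 8 groups of 3 arrays, WT and *tim17-1* seed, both in the Col-0 background, at 0 h, 48 h S, 6 h SL and 24 h SL. At 0 h the seed was dry and had ripened for 14 or 15 days (the labels give both). At 48 h S it had spent 48 h on MS medium in the dark at 4 °C, and at 6 h SL and 24 h SL it had then spent 6 h or 24 h at 22 °C under continuous light of 100 µE per square metre and second. Temperature, light and elapsed time all change in this step and cannot be told apart. The labels give no nature for the *tim17-1* allele, and the *TIM17-1* transcript was not analysed here, so the genotype was not checked. Nor do they state whether a group's 3 arrays go back to different plants or seed batches. The p-values therefore rest on array-to-array spread that could be purely technical.

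Tim17 proteins belong to the translocase of the mitochondrial inner membrane, through which proteins made in the cytosol with a presequence reach the matrix. Stratification is a cold, wet, dark period that releases seed from dormancy. In light and warmth the phytochromes then promote gibberellin synthesis, the embryo grows by cell expansion, stored oil and protein are broken down, and plastids and mitochondria are built up from their seed forms before the root emerges.

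Seed transcripts marked the samples throughout. The vicilin-like storage protein gene *PAP85* gave intensities of 25121, 25745 and 27503 at 48 h S and 18318, 16695 and 16367 at 6 h SL. The seed coat genes *BAN* and *AT3G50990* (peroxidase 36) stayed between 4.58 and 7.30 on these 6 arrays, which is near the floor of the scale. Of 15 pollen genes *PLIM2b* rose by 1.34, *TUA1* fell by 0.93 and 13 did not pass the test, with a median change of -0.01 log2 units, and their summed intensity was 340 to 373 at 48 h S and 321 to 331 at 6 h SL. Endosperm markers were not analysed here. In whole seed, fewer cells of a type and less RNA per cell cannot be told apart.

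The arrays of the stages differed slightly in range. Medians were 26.3 to 27.6 at 48 h S and 31 to 31.3 at 6 h SL, upper quartiles 246 to 248 and 249 to 251, and the share of probe sets over an intensity of 64 was 42.5% to 42.9% and 43.6% to 43.9%, without overlap in any of these. The root mean square difference between 2 replicates was 0.111 to 0.149 on the log2 scale. The control probe sets for the 3′ and 5′ ends of ubiquitin may read more than 1 gene. They differed by 1.63 ± 0.116 log2 units (SD, n = 3) at 48 h S. At 6 h SL the difference was 1.31 ± 0.0721 (SD, n = 3), without overlap between the stages. The control probe sets of GAPDH differed by 2.89 ± 0.168 and 2.76 ± 0.185 and overlapped. The part of these shifts in the results below was not tested.

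A large share of the transcriptome moved between the stages. On the log2(intensity + 16) scale, limma called 4306 probe sets higher (18.9%) and 4374 lower (19.2%) at an adjusted p under 0.05, 38.2% of those tested. The 3 arrays of each stage did not overlap for 13689 probe sets (60.2%). Among called probe sets this held for 4249 of the 4306 higher and 4189 of the 4374 lower. Separate arrays in a called gene below therefore add little to its call. The median change over all probe sets was -0.01, and 33.4% of them had a change above 0. A change of at least 1 log2 unit was reached by 1070 risers and 694 fallers, one of at least 2 by 173 and 123, and one of at least 4 by 12 and 9. Where the mean intensity of the 6 arrays was under 16, 7.62% of 10268 probe sets were called. That share was 51.7% between 16 and 64 and 72.4% among the 2051 brightest. For 13350 genes with a probe set of their own, the calls were 2329 higher (17.4%) and 2380 lower (17.8%), 35.3% in all, with a median change of -0.01. These shares are the background for every gene group below.

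The 12 largest rises, taken among genes with a probe set of their own, with separate arrays and a mean of at least 100 at 6 h SL, included genes for proteases, metabolic enzymes and a dehydrin. *scpl48* (AT3G45010), a serine carboxypeptidase-like gene, went from 9.42, 14.1 and 12.1 on the 3 arrays at 48 h S to 809, 922 and 881 at 6 h SL, a change of 4.99 ± 0.119 log2 units (SE, adjusted p = 2.25e-15). *COR47*, a dehydrin induced by cold and drought, went from 5.02, 4.83 and 7.08 to 384, 468 and 464 (4.39 ± 0.235, adjusted p = 5.84e-11). *DELTA-VPE*, a vacuolar processing enzyme, a protease that matures vacuolar proteins, went from 16.5, 27.1 and 31.0 to 647, 828 and 786 (4.24 ± 0.197, adjusted p = 9.06e-12). In all 3 genes the arrays of the stages were far apart, but separate arrays were a condition of the choice. *ALDH11A3*, the non-phosphorylating glyceraldehyde-3-phosphate dehydrogenase, rose by 3.71 and *NDB3*, an external NAD(P)H dehydrogenase of mitochondria, by 3.62. *UGT74B1*, a glucosyltransferase of glucosinolate synthesis, rose by 3.60, and *CML43*, a calmodulin-like protein, by 3.42. *YLS5*, of the DJ-1 family, rose by 3.38, *CSLC04*, which makes the glucan backbone of xyloglucan, by 3.31, and the subtilase gene *SBT1.3* by 3.1. *AT3G15720* (4.68) and *AT4G20230* (3.45) carry only a locus code and complete these 12.

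The 12 largest falls were taken among genes with a probe set of their own, with separate arrays and a mean of at least 100 at 48 h S. *LTI30*, a dehydrin of cold-treated and desiccated tissue, fell from 18727, 18326 and 18054 at 48 h S to 879, 706 and 804 at 6 h SL, a change of -4.51 ± 0.130 (SE, adjusted p = 2.6e-14). *AOP3*, a dioxygenase gene of glucosinolate side-chain modification, fell from 3556, 4035 and 3389 to 177, 179 and 248 (-4.09 ± 0.135, adjusted p = 1.34e-13). *AT2G44800* fell from 1699, 1562 and 1446 to 39.4, 35.6 and 26.7 (-4.99 ± 0.125, adjusted p = 4.33e-15). All 3 genes were high on every array at 48 h S and low on every array at 6 h SL, but separate arrays were a condition of the choice. *AT1G11210* was at 421 to 457 at 48 h S and at 3.34 to 3.40, the floor of the scale, at 6 h SL, so that its change of -4.55 is bounded by the offset of 16. The glycosyltransferases *UGT72E1*, which acts on lignin precursors, and *UGT76B1*, which acts on isoleucic and salicylic acids, fell by 3.25 and 3.2 log2 units. The other 6 of the 12 largest falls, from -3.93 to -3.02, were *AT5G15950*, *AT5G66430*, *AT2G28400*, *AT1G71250*, *AT1G14580* and *AT4G30650*.

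**Figure D1:**
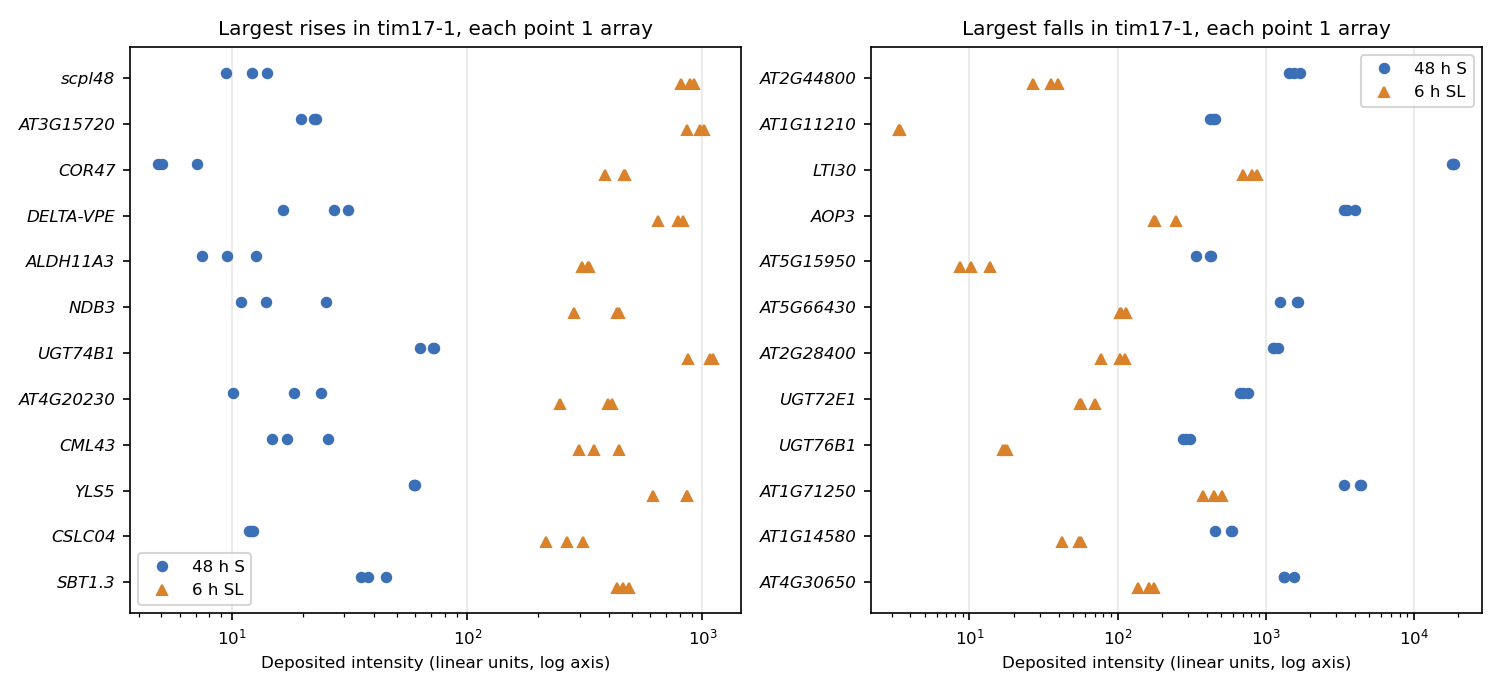
Deposited intensity (linear units on a log axis) of the 12 genes with the largest rises (left) and the 12 with the largest falls (right) in *tim17-1*, each point 1 array. Circles are 48 h S and triangles 6 h SL, and the genes were chosen for arrays that stand apart. *scpl48* goes from 9.42 to 14.1 up to 809 to 922, and *LTI30* from 18054 to 18727 down to 706 to 879.

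Among the 5% of genes with the highest mean over the 6 arrays, *AT1G73120*, known only by its locus, rose most, by 2.96. *CP1*, a papain-like cysteine proteinase, went from 1527, 2036 and 2464 to 12479, 13655 and 14564, a rise of 2.77 ± 0.139 (adjusted p = 2.47e-11). *scpl20* rose by 2.60, the alpha-tubulin *TUA6* by 2.58 and the expansin *EXPA9* by 2.41. The largest falls in the same stratum were *LTI30*, *AOP3*, *AT1G71250* (-3.14), *AT4G36600* (-2.71) and *AT4G33980* (-2.36).

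Most listed plastid genes of transcription and translation rose. Of 21 plastid-encoded genes for ribosomal proteins, RNA polymerase, the splicing factor MatK and the ClpP protease, 14 rose, none fell and 7 did not pass, with a median of 1.03. Summed over the list, the intensity was 39686 to 46402 at 48 h S and 81123 to 94499 at 6 h SL. *rpl22*, a protein of the large ribosomal subunit, went from 4708, 4281 and 3668 to 11932, 11128 and 14769 (1.57 ± 0.149, adjusted p = 9.81e-08). *rpl14* rose by 1.57, *rpl36* by 1.41 and *rps3*, of the small subunit, by 1.36. The polymerase genes *rpoA*, *rpoC1* and *rpoC2* rose by 0.92, 1.17 and 1.13, while *rpoB*, at 11 to 12.3 on all 6 arrays, changed by -0.01 and did not pass. *clpP* rose by 0.44.

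Plastid genes of photosynthesis split. Of 43, 12 rose, 7 fell and 24 did not pass, with a median of 0.10. *atpA*, an ATP synthase subunit, went from 501, 509 and 546 to 1585, 1306 and 1763 (1.54 ± 0.178, adjusted p = 1.21e-06). *psbN*, which helps to assemble photosystem II, went from 506, 384 and 429 to 93.7, 106 and 197 (-1.68 ± 0.247, adjusted p = 2.09e-05). In both genes the arrays of the stages stood apart. *psbA*, for the D1 protein of photosystem II, fell by 1.33 and *petN*, of the cytochrome b6f complex, by 0.49. *rbcL*, the large subunit of Rubisco, went from 200, 197 and 257 to 156, 110 and 166 and did not pass (-0.55, adjusted p = 0.08).

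Some runs of neighbouring plastid genes moved alike and others did not. The gene runs named here were picked after their values were seen, so their counts are a description. All 4 genes of *psbE*, *psbF*, *psbL* and *psbJ* rose (0.82 to 1.22), as did both *psbK* and *psbI*, both *atpB* and *atpE*, and all 7 measured genes of the ribosomal protein run of 9 from *rps19* to *rpoA* (0.92 to 1.57). The 3 genes *ndhC*, *ndhK* and *ndhJ*, of the NDH complex, fell (-1.39 to -0.44). *ndhK* went from 157, 142 and 143 to 35.7, 37.7 and 70.8, and *ndhJ* from 304, 302 and 288 to 113, 101 and 157. In the run *atpI*, *atpH*, *atpF* and *atpA* only *atpA* passed (0.11 to 1.54), and of *rpoB*, *rpoC1* and *rpoC2* the first did not. Of the 7 genes from *ndhH* to *ndhD* only *ndhI* passed (0.36). In the run *psbB*, *psbT*, *psbH*, *petB* and *petD*, only *psbT* passed (-0.94). *psaA* and *rps14*, at 5.44 to 6.82 in the group means, lay near the floor. In the runs above, *rpoB*, *ndhG*, *psaC*, *psbB* and *petD* had group means under 16 at both stages. At such levels few changes were called, so their missing calls cannot tell whether they moved with their neighbours.

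**Figure D2:**
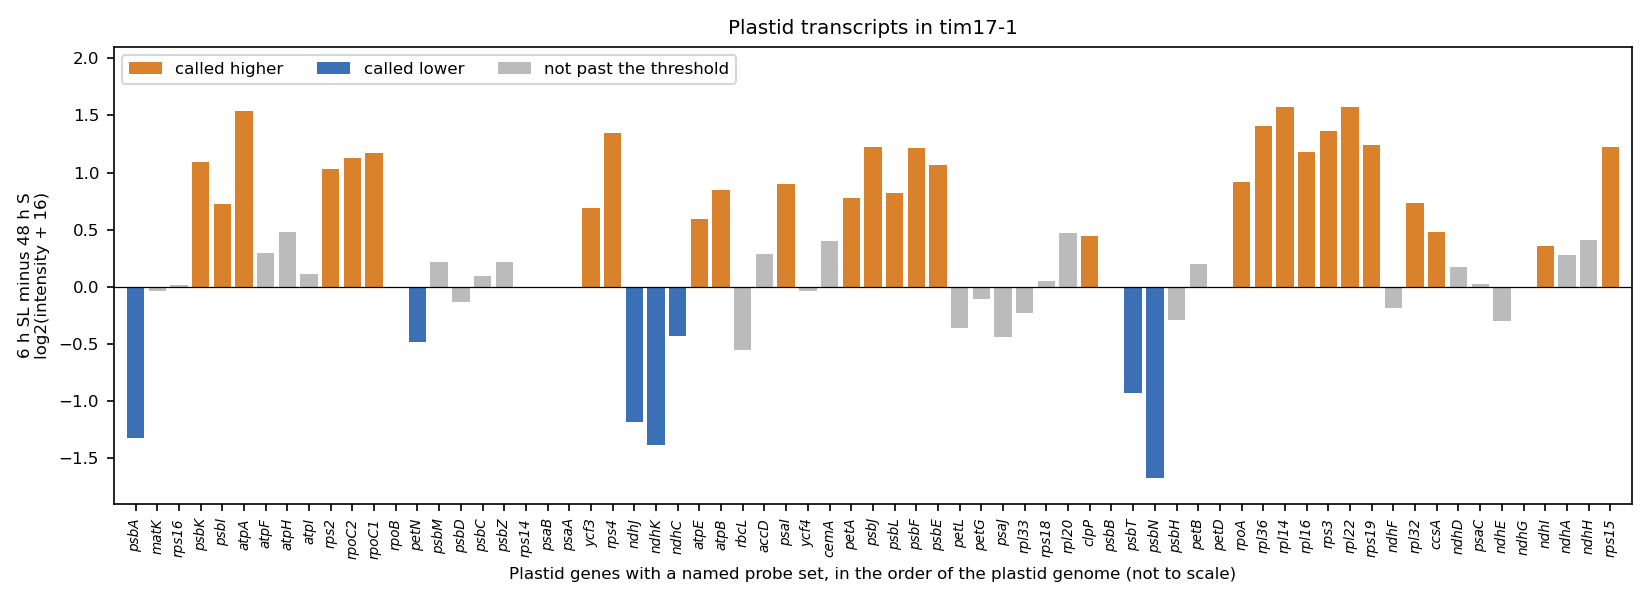
Change from 48 h S to 6 h SL in *tim17-1* (log2 scale, offset 16) for the plastid genes with a named probe set, in genome order with equal spacing. Bars are coloured by the call of limma. Rises cluster in the ribosomal protein run (0.92 to 1.57) and in *psbE* to *psbJ* (0.82 to 1.22), and falls in *ndhC* to *ndhJ* (-1.39 to -0.44).

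Nuclear genes of greening rose more often than they fell. Of 41 genes for antenna proteins, tetrapyrrole synthesis, photosystem assembly and carbon fixation, 21 rose, 6 fell and 14 did not pass, with a median of 0.29. *LHCB4.1*, an antenna protein of photosystem II, went from 104, 91.5 and 96.8 to 255, 276 and 253 (1.29 ± 0.0723, adjusted p = 1.1e-10). *ATPC1*, the gamma subunit of the plastid ATP synthase, went from 185, 201 and 206 to 590, 569 and 576 (1.48 ± 0.0815, adjusted p = 8.8e-11), and neither gene overlapped between stages. *AT1G52220* and *AT4G01150*, which encode CURT1 proteins that bend thylakoid membranes, rose by 1.48 and 1.18. *SBPASE*, of the Calvin cycle, rose by 0.77, and *RCA*, which activates Rubisco, by 0.67. *AT5G58330*, a plastid malate dehydrogenase, and *NdhS*, of the NDH complex, fell by 1.04 and 1.05. *PORB*, a light-dependent protochlorophyllide reductase, was at 16.8 to 20.6 and 13.3 to 16.7 and did not pass (-0.16).

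Respiratory genes were counted by the genome that encodes them. Of 14 mitochondrially encoded genes 6 fell, 1 rose and 7 did not pass, with a median of -0.17. Only 5 of the 14 had a mean over 64 on the 6 arrays, and 1 of the called genes was under 16. *cox1*, the core subunit of cytochrome c oxidase, went from 521, 533 and 518 to 202, 196 and 278 (-1.18 ± 0.124, adjusted p = 3.71e-07). *nad5*, of complex I, fell by 0.80 and *cox2* by 0.50, while *ccb382*, a cytochrome c maturation gene, rose by 0.64. Of 14 nuclear genes of the chain and the citrate cycle, 6 rose, 2 fell and 6 did not pass, with a median of 0.10. The rises were of *SDH1-1* (0.34), *SDH2-1* (0.38) and *SDH2-2* (0.71) of succinate dehydrogenase, *IDH-VI* (0.67) of isocitrate dehydrogenase, *CYTC-2* (0.48) and *GLDH* (0.57), which makes ascorbate. *ISU1*, a scaffold for iron-sulphur clusters, and *MAB1*, a pyruvate dehydrogenase subunit, fell by 0.52 and 0.43. No difference between these lists was tested.

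The alternative NAD(P)H dehydrogenases, which pass electrons to ubiquinone without pumping protons, did not move as a group. *NDB3* went from 10.9, 13.9 and 25.1 to 283, 433 and 441 (adjusted p = 7.36e-13). *NDB2* went the other way, from 208, 198 and 190 to 107, 93.4 and 86.7 (-0.95 ± 0.0779, adjusted p = 1.68e-08), and *NDC1* fell by 0.56. *NDB1* and *NDB4* did not pass (-0.02 and -0.01). Of 11 genes of amino acid breakdown, which feeds electrons to the respiratory chain, 7 rose and 1 fell, with a median of 0.41. *DELTA-OAT*, ornithine aminotransferase, went from 1171, 1199 and 1043 to 2902, 3026 and 2918 (1.36 ± 0.0597, adjusted p = 4.28e-12). *ALDH6B2*, of valine breakdown, rose by 0.71, and *AT4G33150*, the lysine-ketoglutarate reductase gene, fell by 1.24.

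Genes of cell growth rose in a few members of each family. Of 19 expansins, proteins that loosen cell walls, 5 rose, 2 fell and 12 did not pass. *EXPA9* went from 498, 549 and 550 to 2559, 3108 and 3029 (2.41 ± 0.0869, adjusted p = 4.03e-13). *EXPA20* rose by 1.91, *EXPA15* by 1.52, *EXPA4* by 1.20 and *EXPA8* by 0.70. *EXPB1* fell from 186, 218 and 221 to 59.8, 56.9 and 66.5 (-1.54 ± 0.0673). The other call, *EXLB1*, was a change of -0.03 near the floor, and without replicate 2 at 6 h SL the list had 1 fall.

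Xyloglucan, the polymer that ties cellulose fibres, and the cytoskeleton followed. Of 15 xyloglucan genes 6 rose and 1 fell (2 without replicate 3 at 48 h S), with a median of 0.02. *CSLC04* went from 12.2, 11.8 and 12 to 216, 311 and 266 (adjusted p = 7.82e-12), while its relative *CSLC5* fell by 0.58. *XTH19*, a xyloglucan endotransglucosylase, rose by 0.53. Of 15 endoglucanases of family GH9, 3 rose, among them *GH9C2* from 5.44, 5.59 and 4.76 to 112, 122 and 117 (2.64 ± 0.0747), and 1 was called lower by -0.02 near the floor (*GH9B8*), a call lost without replicate 1 or 3 at 48 h S or replicate 2 or 3 at 6 h SL. Without replicate 3 at 48 h S 2 other members of that list were called lower. Of 7 tubulins 4 rose, 2 fell and 1 did not pass, with a median of 1.76. *TUA6* went from 434, 443 and 403 to 2567, 2763 and 2539 (adjusted p = 1.42e-14), and *TUB5*, *TUB6* and *TUB7* rose by 2.23, 2.05 and 1.76. *TUA1*, an alpha-tubulin of pollen and other tissues, fell by 0.93 and *TUB9* by 0.30. Probe sets of close gene copies may read more than 1 gene, which was not tested.

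**Figure D3:**
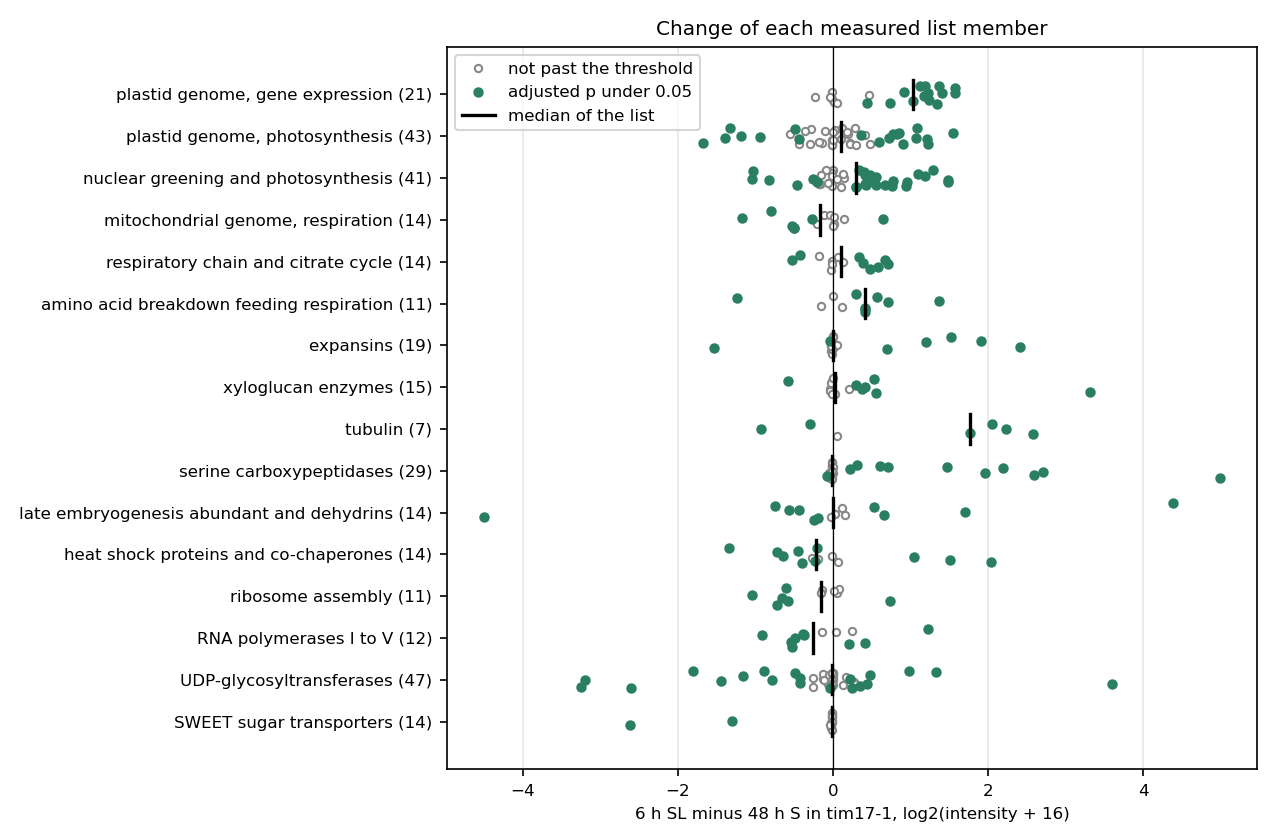
Change from 48 h S to 6 h SL in *tim17-1* for the measured members of 16 gene groups (log2 scale, offset 16, number of members in brackets). Filled points passed an adjusted p of 0.05, open points did not, and black bars are medians, which reach 1.03 in plastid gene expression, 1.76 in tubulins and -0.26 in RNA polymerases.

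Proteases of the vacuole and secretory pathway rose in part of each family. Of 29 serine carboxypeptidase-like genes 10 rose and 1 was called lower by -0.07 near the floor (*scpl18*), with 2 lower without replicate 1 or 3 at 48 h S. *scpl20* went from 1435, 1287 and 1335 to 7397, 8589 and 8878 (adjusted p = 3.05e-14). *scpl25* rose by 2.70, *scpl26* by 2.19, *scpl44* by 1.96 and *scpl29* by 1.48. The list's summed intensity was 8411 to 8508 at 48 h S and 21935 to 23684 at 6 h SL. Of the 4 vacuolar processing enzymes, *DELTA-VPE* rose and *GAMMA-VPE* fell from 275, 251 and 264 to 138, 141 and 159 (-0.79 ± 0.102, adjusted p = 4.82e-06). *BETA-VPE*, which processes seed storage proteins, gave 7304 to 7532 and 7822 to 9162 and did not pass (0.17).

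Listed desiccation and cold genes went both ways. Of 14 listed genes for late embryogenesis abundant proteins and dehydrins, which protect dry cells, 6 fell, 4 rose and 4 did not pass, with a median of 0.00. Other genes of these families were not counted, so the balance holds for the list only. Their summed intensity was 110670 to 115473 at 48 h S and 73828 to 81335 at 6 h SL. *M10* went from 34658, 33230 and 32732 to 20869, 19002 and 19900 (-0.75 ± 0.0678, adjusted p = 5.48e-08), and *M17* and *LEA4-5* fell by 0.56 and 0.44. *AtLEA4-1*, at 12730 to 13707 on the 6 arrays, and *LEA18*, at 15397 to 19704, did not pass in this step (0.03 and 0.12). Both fell in WT (-0.38 and -0.39). Their difference of the steps passed (0.41, adjusted p = 0.018, and 0.50, adjusted p = 0.0425). Against the falls in *tim17-1*, *COR47* rose by 4.39, *AT2G44060* (LEA26) by 1.71, *DI21* by 0.66 and *AT1G54410* (HIRD11, a dehydrin) by 0.54. In the cold list of 5, which shares 4 genes with it, 1 rose and 3 fell, and the sum, most of it *LTI30*, went from between 18229 and 18874 to between 1244 and 1344. *COR27* fell from 126, 141 and 156 to 70.4, 58.9 and 63.2 (-0.97 ± 0.125) and *COR15A* stayed near the floor.

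Listed storage and oil genes moved in both directions, and only 2 genes of storage and oil bodies were listed. Other storage and oil body genes were not counted, so the balance holds for the list only. *PAP85* fell by 0.61, while *OLEO3*, an oil body coat protein, went from 360, 370 and 374 to 703, 545 and 578 (0.69 ± 0.0905, adjusted p = 5.15e-06). Of 5 genes that mobilise oil, the lipase gene *SDP1* (-0.45), the peroxisome genes *AIM1* (-0.54) and *PEX4* (-0.35) fell, and the lipase gene *SDP1-LIKE* rose by 0.88. *ICL*, isocitrate lyase of the glyoxylate cycle, gave 23156 to 24461 and 20424 to 20968 and did not pass (-0.20, adjusted p = 0.0803). *SWEET6* and *SWEET1*, sugar transporters, fell by 2.62 and 1.31, and the other 12 of 14 did not pass (4 fell without replicate 3 at 48 h S). *SWEET6* went from 244, 266 and 227 to 32.5, 27.9 and 20.3, without overlap.

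Regulators of dormancy and hormone response went both ways. Of 11 gibberellin and dormancy genes 3 rose, 4 fell and 4 did not pass. *EEL*, a bZIP factor of late seed genes, went from 48.0, 29.4 and 30.9 to 123, 134 and 115 (1.44 ± 0.115, adjusted p = 1.17e-08), and *SPT* (SPATULA), a repressor of germination in the cold, rose by 0.87. *XERICO*, which raises abscisic acid, fell by 0.80, the seed maturation factor *BZIP53* by 0.70 and *SPY*, a repressor of gibberellin response, by 0.22. The gibberellin receptors parted, with *GID1A* at 477, 563 and 514 and then 266, 310 and 326 (-0.76) and *GID1C* at 12.8 to 14.7 and then 17.7 to 28.8 (0.43). Of 18 auxin genes 3 rose and 2 fell (1 without replicate 3 at 48 h S or replicate 1 at 6 h SL). *WES1* (GH3.5) and *GH3.1*, which conjugate auxin to amino acids, rose by 1.02 and 1.01, and *HAT2*, an auxin-responsive homeodomain factor, fell by 1.38.

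Of 16 light and clock genes 2 rose, 4 fell and 10 did not pass, with a median of -0.02, a share near that of all genes. *GI* (GIGANTEA), which links clock, light and flowering, went from 35, 35.9 and 39.4 to 113, 110 and 101 (1.23 ± 0.103, adjusted p = 2.11e-08). *HYH*, a bZIP factor of light response, fell from 132, 97.9 and 96.1 to 48.2, 43.3 and 45.5 (-1.0 ± 0.146, adjusted p = 1.72e-05). The groups of arrays did not overlap for either gene.

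The listed genes of ribosome assembly and of RNA polymerases fell more often than they rose. Of 11 ribosome assembly genes 5 fell, 1 rose and 5 did not pass, with a median of -0.15. All 11 had a mean over 64 on the 6 arrays, as had 11 of the 12 RNA polymerase subunits below. At such levels 61.8% or more of all probe sets were called in either direction. The share called in both lists was near that, and their balance of falls and rises was not tested. *AT5G52820* (NLE) went from 2895, 2961 and 3077 to 1475, 1398 and 1453 (-1.04 ± 0.0628, adjusted p = 2.88e-10), *AT5G41190* (NOB1) fell by 0.72 and *AT5G14520* (PES) by 0.65. The exception was *RRP41L*, an RNA-decay gene, which rose by 0.74. Of 12 subunits of RNA polymerases I to V, 6 fell and 3 rose, with a median of -0.26. *NRPC1*, the largest subunit of polymerase III, rose by 1.22 and *NRPB9B* fell by 0.92. Of 19 genes of DNA replication, histones and mitosis 6 rose and 1 fell (3 without replicate 3 at 48 h S), led by *PRL* (MCM7, of the replicative helicase), which went from 13.6, 20.4 and 20.8 to 95, 107 and 79.7 (1.68 ± 0.122, adjusted p = 3.1e-09). *AUR2*, an Aurora kinase, rose by 1.13 and the linker histone *HON4* fell by 0.57.

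Of 14 listed genes for heat shock proteins and co-chaperones 7 fell and 3 rose, with a median of -0.22. Other genes of these families were not counted, so the balance and the kinds of genes that rose or fell hold for the list only. *ATHSP22.0*, a small heat shock protein, went from 68.1, 86.0 and 79.8 to 19.2, 17.9 and 26.1 (-1.34 ± 0.0853, adjusted p = 5.53e-10). The risers within this list were the co-chaperones *AT5G48570* (ROF2), from 9.25 to 9.86 up to 84.3 to 93.3 (2.04 ± 0.1), *Fes1B* (1.51) and *Hop3* (1.05). In the endoplasmic reticulum list of 13, 4 rose and 5 fell. *OS9* and *ATERDJ3B*, of protein quality control and folding, rose by 1.55 and 1.40, and the stress transcription factors *BZIP60* and *BZIP17* fell by 0.80 and 0.63.

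Of 47 UDP-glycosyltransferases 8 rose, 12 fell and 27 did not pass, and the family held 1 of the 12 largest rises and 2 of the 12 largest falls. *UGT74B1* went from 62.7, 71.5 and 72.5 to 864, 1111 and 1081 (adjusted p = 5.23e-14). *UGT71C2* fell by 2.61. Of 14 glutathione transferases *GSTL3* went from 4.88 to 5.22 up to 48.0 to 52.1 (1.64) and *GSTU20* rose by 1.30, while 2 fell (1 without replicate 1 or 3 at 48 h S or replicate 3 at 6 h SL). Of 19 members of the cytochrome P450 family CYP71B 4 rose, led by *CYP71B37* (1.15), and 1 fell (0 without replicate 2 at 48 h S or replicate 1 at 6 h SL). In the early stress list of 19, the zinc finger gene *STZ* fell by 1.01 and *WRKY6* by 0.90, while *CML43* rose by 3.42 and *WRKY22* by 0.78. Of 8 flavonoid genes 1 rose and 1 fell, both calls being lost without replicate 2 at 48 h S, and the rise also without replicate 2 at 6 h SL. Without replicate 3 at 48 h S or replicate 1 at 6 h SL the rises were 2. Of 10 autophagy genes 2 rose (1 without replicate 2 at 48 h S) and 1 fell. Of 4 subunits of ATP citrate lyase, which makes acetyl-CoA in the cytosol, 2 rose and 1 fell, *ACLA-1* by 1.04 upward and *ACLA-3* by 0.58 downward. Of 8 genes for endoplasmic reticulum bodies and jacalin lectins, *PYK10* and *NAI2* rose by 1.69 and 0.72.

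Most risers had not yet peaked. Of the 1070 probe sets that rose by at least 1 log2 unit, the *tim17-1* mean was highest at 24 h SL for 687, at 6 h SL for 237 and at 0 h for 146. *scpl48* went on to a mean of 6108 at 24 h SL, *DELTA-VPE* to 10016 and *CP1* to 30393. *GI* instead fell back to 30.2, and *AT4G20230* to 59.3. Of the 694 that fell as far, 360 were highest at 48 h S and 307 in dry seed, and 381 were lowest at 24 h SL. *AOP3* belongs to those with a peak at 48 h S, with means of 17.8 at 0 h and 13.5 at 24 h SL. *LTI30* belongs to those that decline from dry seed, from 32357 at 0 h to 84.9 at 24 h SL.

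**Figure D4:**
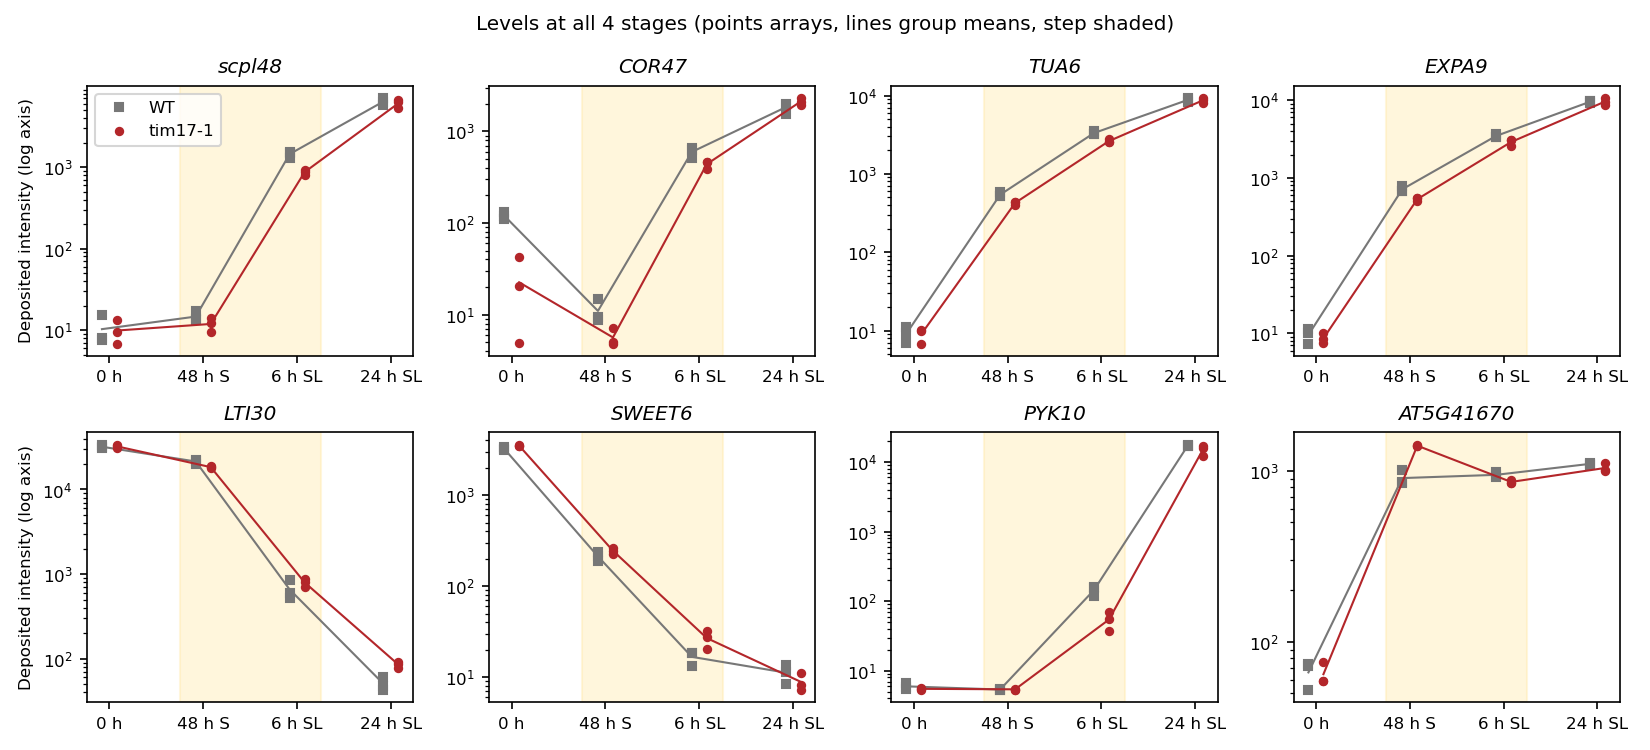
Deposited intensity (log axis) of 8 genes at the 4 stages in WT (squares) and *tim17-1* (circles), points being arrays and lines group means, with the step from 48 h S to 6 h SL shaded. *scpl48*, *COR47*, *TUA6* and *EXPA9* rise on to 24 h SL, *LTI30* and *SWEET6* fall from dry seed on, and in *AT5G41670* the *tim17-1* arrays drop from 1389 to 1419 down to 846 to 882.

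The same step in WT, measured on 6 other arrays, called 8577 probe sets (37.7%). Of the 4306 called higher in *tim17-1*, WT was called in the same direction for 3721 and in the opposite for 7. Of the 4374 called lower, these numbers were 3370 and 8. The changes of both genotypes correlated across the 22746 probe sets with r = 0.956, a description over probe sets that share arrays and are not replicates. Where the mean of both steps was a rise of at least 1, the median change was 1.35 in *tim17-1* and 1.37 in WT (1049 probe sets), and where it was such a fall, -1.31 and -1.42 (736 probe sets). The fall was larger in WT for 63.5% of the latter.

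The difference between the steps was tested by itself, and it passed for 163 probe sets (0.717%), against 2112 at an unadjusted p under 0.05. For 107 of them (0.47%) the change was more positive in *tim17-1*, and 70 of these fell in both genotypes, further in WT. For 56 (0.246%) it was more negative in *tim17-1*, and 26 of these rose in both. These counts moved with single arrays: leaving out 1 array at a time gave 38 to 207 and 19 to 96, the lowest without WT 6 h SL replicate 1 and WT 48 h S replicate 1, and both highest without WT 6 h SL replicate 2.

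*PYK10*, a beta-glucosidase of endoplasmic reticulum bodies, rose less in *tim17-1*. It went from 5.36, 5.50 and 5.36 to 37.4, 71.0 and 54.8, and in WT from 5.35, 5.31 and 5.45 to 155, 120 and 158, a difference of the steps of -1.21 ± 0.190 (adjusted p = 0.00718, and 0.0601 with only the 12 arrays of both steps). *AT4G26790* also rose less, to 83.8, 82.1 and 76.5 against 145, 156 and 153 in WT (-0.82 ± 0.0696, adjusted p = 2.92e-05). In both genes the genotypes overlapped at 48 h S and stood apart at 6 h SL. *AT5G41670* fell from 1397, 1389 and 1419 to 846, 854 and 882, and in WT gave 863, 844 and 1013 and then 978, 917 and 946 (-0.76 ± 0.131, adjusted p = 0.0152). Its *tim17-1* arrays were above those of WT at 48 h S and below them at 6 h SL.

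At the offset of 16 the largest positive difference was that of *AT1G72800*, which rose from 13.6, 4.78 and 6.31 to 29.7, 29.5 and 40.6, while WT lay at 163, 193 and 183 and then 126, 160 and 153 (1.31 ± 0.218, adjusted p = 0.0112). Its size followed the offset, at 2.29 with an offset of 1 and 0.64 with 64, where it was below that of *AT2G29300* (0.95). Its *tim17-1* arrays were below every WT array at both stages. *AT3G21380* rose from 247, 234 and 254 to 730, 601 and 560, with a WT change of 0.05 (1.25 ± 0.222, adjusted p = 0.0158). *AT2G34315* did not pass in *tim17-1* (-0.18) and fell by 1.41 in WT, from 489, 397 and 382 to 122, 182 and 147. *AT2G29300* and *AT5G45310* fell in both genotypes, by 1.10 and 1.99 in *tim17-1* and by 2.36 and 3.15 in WT.

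**Figure D5:**
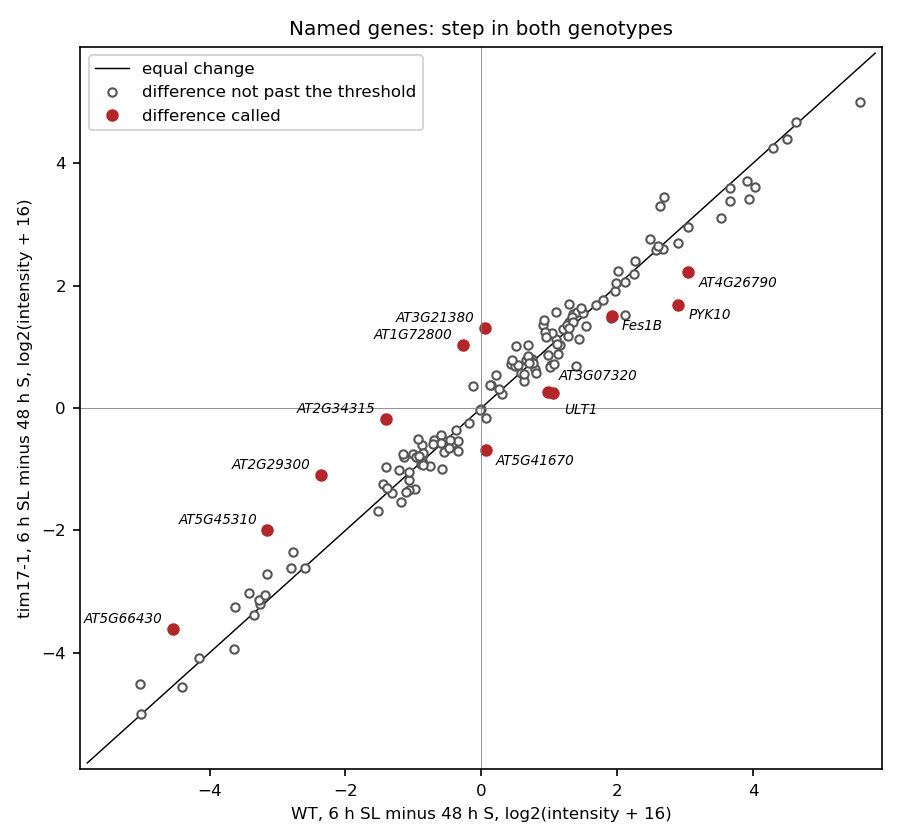
Change from 48 h S to 6 h SL in WT (horizontal) and *tim17-1* (vertical), log2 scale with an offset of 16, for the named genes, with the line of equal change. Filled red, labelled points passed the test of the difference, from *AT1G72800* (1.31 above the line) to *PYK10* (1.21 below it). Open points did not pass.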

How the data were processed

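The deposited table holds linear intensity values, 1 column for each of 24 one-colour Affymetrix arrays, made by the authors from 400 ng of total RNA from 80 mg of seed, per the labels. The submitters' processing notes name Partek, RMA and MAS5, without saying which of them produced these values or how they were scaled. No detection calls were used, so changes near the floor are uncertain.

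From these values log2(value + 16) was computed. With limma (version 3.58.1, under R 4.3.3, tables read by data.table, version 1.17.8), 8 group means were fitted over all 24 arrays (16 residual degrees of freedom), followed by eBayes and Benjamini-Hochberg adjustment over 22746 probe sets, with a threshold of 0.05. The 64 control probe sets were left out. The offset understates changes of weak transcripts. The fit was tested on simulated data, with normal noise and, for each probe set, equal means in all groups. Of the 22746 probe sets, 200 above the median level were then changed in the *tim17-1* 6 h SL group. For the step, 65% of changes of 0.5 log2 units and 95% of those of 1 were recovered. For the step difference these shares were 36% and 82%, so in the simulation smaller differences between genotypes were often missed. False calls made up 3.61% and 5.6% of the calls. In the data 38.2% of probe sets were called in the step, far more than were changed here, so these shares may not carry over. With 3 arrays a side, no exact permutation p can be smaller than 0.1, so none was computed.

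The platform annotation, updated through a table of assembly TAIR10.1, gave 1 gene for 13513 probe sets, several for 503 (not named) and none listed for 8730. For each of 13350 genes the probe set with the highest mean was kept. Named genes are the 12 largest called rises and 12 largest called falls with separate arrays and a mean of at least 100 in the higher group, the 5 largest of each among the 5% most abundant genes, up to 4 called members of each list, and the 5 largest called differences of each sign between genotypes. Members and lists were chosen with earlier results of these data known. The first gene lists relied on gene descriptions, which the reference table does not hold, and were replaced by lists of 543 symbols, of which 538 were measured. Later 3 genes were dropped after their values had been seen, 2 known only by a locus code and 1 annotated with another function. Alternatives were offsets of 1 and 64, cyclic loess, a mean intensity over 32, only the arrays compared, the replicate number as a block, array weights and each array left out, and, added later, no dry seed and weights on the compared arrays. Promoter motifs were not analysed here. Same-numbered *tim17-1* arrays of the 2 stages deviated with r between 0.0087 and 0.030, and differently numbered ones with r between -0.048 and 0.032. Such small correlations over all probe sets cannot decide whether the numbers pair the samples. The main fit did not pair them.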

Additional observations from a re-analysis of the deposited data

Results flagged for a closer look

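By limma's test of the difference itself, the step differed between *tim17-1* and WT for 12 genes chosen by the naming rules. Values are *tim17-1* minus WT in log2 units. The difference was positive for *AT1G72800* (1.31), *AT2G29300* (1.26), *AT3G21380* (1.25), *AT2G34315* (1.23), *AT5G45310* (1.15) and *AT5G66430* (0.919). It was negative for *PYK10* (-1.21), *AT4G26790* (-0.822), *ULT1* (-0.815), *AT5G41670* (-0.76), *AT3G07320* (-0.723) and *Fes1B* (-0.412). *AtLEA4-1* (0.407) and *LEA18* (0.503), quoted above outside those rules, also passed. Their calls under the alternatives were not counted. Under 21 alternatives the call held each time for *AT1G72800*, *AT2G34315*, *AT4G26790* and *AT5G41670*. It was lost once for *PYK10*, 2 times each for *AT2G29300* and *AT3G21380*, 6 times for *AT5G45310*, 7 times for *AT3G07320*, 12 times for *ULT1*, 14 times for *Fes1B* and 15 times for *AT5G66430*. At 48 h S *AT3G07320*, *PYK10* and *AT4G26790* were near the floor in both genotypes, with *tim17-1* arrays at 3.53 to 3.96, 5.36 to 5.50 and 4.70 to 4.82, and *ULT1* was low at 14.7 to 24.7.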

How the results depend on the processing

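The counts of probe sets called higher in the *tim17-1* step lay between 3995 and 5179 over all alternatives and stayed within 1.5 times of 4306. Those called lower stayed within 1.5 times of 4374 except with array weights (6956). Leaving out 1 array of the step at a time gave 3995 to 4075 higher and 3682 to 4747 lower, and 1043 to 1089 and 680 to 705 by at least 1 log2 unit. With log2(value + 64) the latter were 575 and 428. The replicate numbers as a block gave 4278 and 4241, and 76 and 40 for the step difference. Of the 147 named genes called in the step, 0 to 6 lost their call in any 1 setting (*GH9B8*, *LIP1*, *UGT78D2*, *DFR*, *GSTU22*, *CYP71B26*, *ATG8D* or *AT3G07320*). Changes moved by over 1.5 times for 22 with log2(value + 1) and 48 with log2(value + 64). *GH9B8*, called lower by 0.02 at an intensity near 5, was at 0.0011 with cyclic loess.

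The counts of the step difference moved more. The 107 more positive probe sets became 184 above a mean intensity of 32, 56 with only the arrays compared, 777 with array weights, 428 with weights on only the arrays compared and 59 without the dry seed arrays. The 56 more negative became 37 with log2(value + 1), 934 with array weights and 491 with weights on only the arrays compared, and were 62 with only the arrays compared and 65 without dry seed. In these last 2 settings and both weighted fits the more negative outnumbered the more positive, the reverse of 107 to 56. The fits with weights on the compared arrays and without dry seed were chosen after seeing the data. Leaving out 1 array gave 38 to 207 and 19 to 96. More positive counts moved by over 1.5 times without *tim17-1* 48 h S replicates 1 and 2 (69 and 39), 6 h SL replicates 1 and 2 (46 and 70), WT 48 h S replicates 1 and 2 (44 and 55) and WT 6 h SL replicates 1, 2 and 3 (38, 207 and 47). More negative counts did so without *tim17-1* 48 h S replicate 2 (26), 6 h SL replicates 1 and 3 (31 and 36), WT 48 h S replicates 1 and 2 (19 and 25) and WT 6 h SL replicates 1, 2 and 3 (26, 96 and 29). The causes were not tested.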
